A study of Mus musculus with 9 samples.

Results

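The genes described here are Acod1, which makes itaconate, and 6 genes that take up, use or rebuild arginine: Arg1, Arg2, Nos2, Slc7a2, Ass1 and Odc1. They were measured by 13 probe sets that the platform annotation assigns to exactly 1 of these symbols, and made up 7 of 18193 genes. They were chosen by this shared chemistry and by the measured levels of Acod1 and Arg1, which were far lower with hedgehog ligand, so their values against Vehicle are a description and support nothing, the count of those past the threshold included. Small intestinal mesenchyme, the connective tissue and muscle precursor layer under the gut epithelium, came from C57Bl/6J mouse embryos at E18.5. It was separated from epithelium, grown for 48 h on collagen matrix with serum, and exposed for 24 h to the secreted ligands Shh (Sonic hedgehog, 3 arrays) or Ihh (Indian hedgehog, 3 arrays), or to Vehicle (3 arrays). The study asked which genes of this tissue respond to hedgehog signalling. Each array was hybridised with RNA of a pool of culture wells, drawn at random from the 6 wells of a treatment, so replicate error here is the spread between pools of wells. The sources used here do not state ligand dose or what the vehicle was.

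Macrophages that sense microbial products switch on Acod1, a mitochondrial enzyme that turns cis-aconitate of the citric acid cycle into itaconate, an inhibitor of succinate dehydrogenase. Arginine enters the cell through transporters such as Slc7a2 and is then contested by different enzymes. Nitric oxide synthase (Nos2) makes nitric oxide and citrulline from it, while the arginases Arg1 (cytosolic) and Arg2 (mitochondrial) make urea and ornithine. Odc1 turns ornithine into putrescine, the first polyamine, and Ass1 starts the route from citrulline back to arginine. Arg1 is widely used as a mark of macrophage activation in mice, and Arg2 and Odc1 are also used by other cell types.

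The promoter of Acod1 is shown because Acod1 is the gene whose level differed between the ligands, and that of Odc1 because it is the other gene lower with ligand for which a sequence was at hand. Both are RefSeq sequences of GRCm38.p6, plus strand, 5′ to 3′, ending at the last base before the annotated gene start, chr14:103046762-103047011 for Acod1 and chr12:17544623-17544807 for Odc1. Capitals mark matches to 8 motifs searched on both strands. The TATA box was searched as TATAAA, the NF-kB motif as GGNNNTTCC, the AP-1 motif as TGANTCA, the C/EBP motif as TTGCNNAA, the STAT motif as TTCNNNGAA, the motif of ETS factors and PU.1 as GGAAGT, the E-box of Myc as CACGTG and the GLI motif as ACCACCC.
Acod1: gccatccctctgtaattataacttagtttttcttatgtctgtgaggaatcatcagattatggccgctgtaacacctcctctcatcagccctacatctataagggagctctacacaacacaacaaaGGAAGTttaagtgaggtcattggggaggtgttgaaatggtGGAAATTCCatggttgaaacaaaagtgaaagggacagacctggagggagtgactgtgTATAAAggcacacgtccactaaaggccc
Odc1: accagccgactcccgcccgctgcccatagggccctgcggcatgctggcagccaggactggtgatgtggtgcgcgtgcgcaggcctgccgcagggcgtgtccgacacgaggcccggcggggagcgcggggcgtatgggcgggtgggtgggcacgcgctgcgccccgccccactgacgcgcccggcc
The Acod1 sequence held a TATA box 28 to 23 bases before the start, the palindrome GGAAATTCC 85 to 77 bases before it, which matches the NF-kB motif on both strands, and GGAAGT 125 to 120 bases before it. Among the 250 bases before the start of 32851 mouse promoters, the TATA box letters were in 12.4%, the NF-kB letters in 15.7% and GGAAGT in 19.7%. The 185 bases of Odc1 held none of the 8 motifs and had a GC content of 77.8%, against 44.4% in Acod1 and a median of 52.4% over all promoters. The Odc1 sequence was cut at the annotated gene start and lacks the last of the 250 bases used for Acod1 and for all promoters. That stretch, where Acod1 held its TATA box, was not searched in Odc1. The motifs and GC content of Odc1 therefore cover a different window. The letters searched were chosen after the Acod1 sequence had been read. A match is a run of letters, not a measured binding site.

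Levels are log2 expression values, so a difference of 1 is a 2-fold change. Array medians over all probe sets lay between 5.87 and 5.92. Low array values are compressed towards background, so differences that reach below these medians may be understated. Between arrays, Pearson's r over all probe sets (not independent of each other) ran from 0.991 to 0.998. Xist, of female cells, lay at 6.43 on Shh 3 and 6.34 to 6.48 on Vehicle 2 and Vehicle 3, against 10.04 to 11.31 on the other 6 arrays, so the pools differed in the sex of their embryos. RNA integrity, read as the signal at the 3' end of Gapdh minus that at its 5' end, was -0.19 to -0.04 log2 on ligand arrays and -0.08 to 0.03 on Vehicle arrays. The same difference for actin was 0.12 to 0.18 on ligand arrays and 0.15 to 0.28 on Vehicle arrays.

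Acod1 was lower with both ligands, and lower with Ihh than with Shh. Its levels were 6.56, 6.31 and 6.30 log2 with Shh, 5.38, 5.11 and 5.35 with Ihh, and 8.23, 8.24 and 8.20 with Vehicle. All 6 ligand arrays lay below all 3 Vehicle arrays, and the Shh and Ihh arrays did not overlap either. The level averaged 6.39 ± 0.15 in Shh pools, 5.28 ± 0.15 in Ihh pools and 8.22 ± 0.02 in Vehicle pools (SD, 3 pools each). Acod1 was 3.57-fold lower with Shh (-1.83 ± 0.09 log2, SE) and 7.68-fold lower with Ihh (-2.94 ± 0.09), where it was below the array medians. In a mixed culture of this kind, fewer cells that make a transcript and less transcript per cell cannot be told apart.

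**Figure D1:**
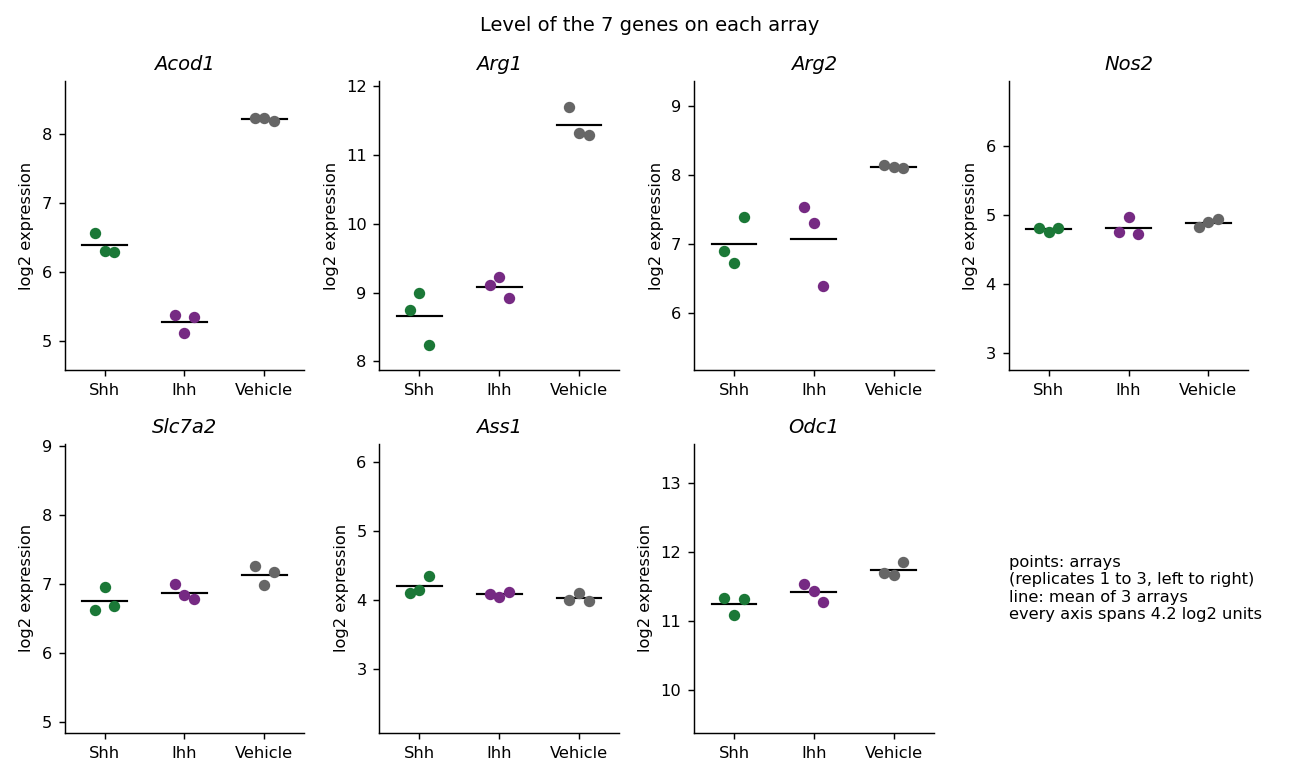
Log2 expression of the 7 genes on each array, by treatment, with points for arrays and a line for the mean of 3 arrays, and the same span on every axis. Acod1 forms 3 separate levels, 6.30 to 6.56 with Shh, 5.11 to 5.38 with Ihh and 8.20 to 8.24 with Vehicle, and Arg1 lies at 8.24 to 9.22 on the ligand arrays and 11.29 to 11.70 on the Vehicle arrays.

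The difference between the ligands was not used to choose the genes and was tested over all genes. Acod1 was 2.15-fold higher with Shh than with Ihh (1.11 ± 0.09 log2, SE, 95% confidence interval 0.90 to 1.31, limma adjusted p = 0.00519), with all 3 Shh arrays above all 3 Ihh arrays. Such an order was seen in 9.37% of all genes, and the groups did not overlap, in either direction, in 17.3%. Acod1 had the smallest p of all 18193 genes in this comparison. Of these genes 2, or 0.011%, passed the threshold, and the other was Marco, a scavenger receptor of macrophages, at 8.91 log2 with Shh and 7.12 with Ihh on average (adjusted p = 0.0142). The call of Acod1 held without any single array, at an adjusted p of 0.011 to 0.0354, and ended when the Vehicle arrays were left out of the fit, at an adjusted p = 0.0948 with a difference of the same size. Marco lost its call without Shh 1, Shh 2, Shh 3, Ihh 1, Vehicle 1 or Vehicle 2. On Shh 3, the Shh array with low Xist and with Eif2s3y, a Y-linked transcript, at 8.44, Acod1 was 6.30, against 5.11 to 5.38 on the Ihh arrays, where Eif2s3y was 7.54 to 8.51 and Xist 10.04 to 10.66. No Shh array matched the Ihh arrays in both transcripts, and the part of embryo sex in the difference was not tested.

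**Figure D2:**
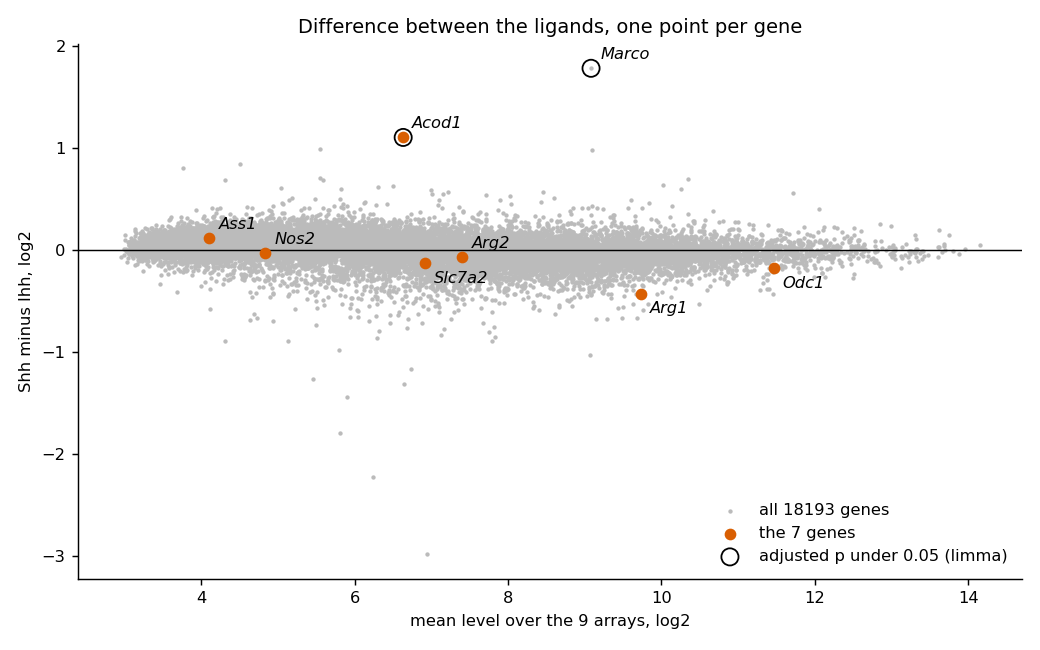
Shh minus Ihh (log2) against the mean level over the 9 arrays (log2), 1 grey point for each of 18193 genes, the 7 genes in orange and genes past the adjusted threshold circled. Acod1 (1.11) and Marco (1.78) are circled, and the other 6 orange points lie between -0.42 and 0.12.

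None of the other 6 genes passed the threshold between the ligands. The Arg1 difference was of the opposite sign to that of Acod1 (-0.42 ± 0.18, SE, 95% confidence interval -0.82 to -0.02, limma adjusted p = 0.37). Shh 2 lay above Ihh 3 in Arg1, so the ligand arrays overlapped. For Arg2 the difference was -0.07 (interval -0.65 to 0.51, limma adjusted p = 0.92) and for Odc1 -0.17 (interval -0.38 to 0.03, adjusted p = 0.442). These intervals leave room for a difference of up to 0.65 log2 in Arg2. Differences for Slc7a2, Ass1 and Nos2 were -0.13, 0.12 and -0.02 (limma adjusted p = 0.598, 0.499 and 0.896).

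Of the arginases, Arg1 showed the larger difference from Vehicle. It lay at 8.74, 9.0 and 8.24 log2 with Shh, 9.12, 9.22 and 8.92 with Ihh, and 11.70, 11.32 and 11.29 with Vehicle. All ligand arrays were below all Vehicle arrays, with a gap of 2.07 log2 between the highest ligand array and the lowest Vehicle array. Arg1 was 6.84-fold lower with Shh (-2.77 ± 0.18 log2, SE) and 5.10-fold lower with Ihh (-2.35 ± 0.18). Unlike Acod1, it stayed well above the array medians on every array. On Ihh 1, where the Gapdh difference of -0.04 lay within the Vehicle range, Acod1 was 5.38 and Arg1 9.12 log2, against 8.20 to 8.24 and 11.29 to 11.70 with Vehicle. The part of RNA integrity in the differences was not tested.

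Arg2, the mitochondrial arginase, was also lower, with a wide spread between ligand arrays. Its levels were 6.91, 6.73 and 7.39 log2 with Shh, 7.54, 7.31 and 6.39 with Ihh, and 8.15, 8.12 and 8.11 with Vehicle. All ligand arrays lay below all Vehicle arrays. The SD was 0.34 with Shh and 0.61 with Ihh, against 0.02 with Vehicle. A second probe set of Arg2 gave 6.32, 6.05 and 6.45 with Shh, 6.55, 6.55 and 5.71 with Ihh, and 7.46, 7.34 and 7.41 with Vehicle. In both probe sets Ihh 3 was the lowest array and Shh 2 the second lowest. Arg2 was 2.17-fold lower with Shh and 2.07-fold lower with Ihh. Ihh 3 weighed on the second value: without it the Ihh difference was -0.70 log2, against -1.05 with it.

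Epithelial transcripts varied between arrays as well. The mean of 12 epithelium markers was 6.45, 5.67 and 7.25 log2 with Shh, 6.76, 6.88 and 6.13 with Ihh, and 7.12, 6.39 and 5.67 with Vehicle. Among the ligand arrays the lowest epithelium values were those of Shh 2 and Ihh 3, as for Arg2. Among the Vehicle arrays this mean spanned 5.67 to 7.12 while Arg2 stayed at 8.11 to 8.15. The part of the epithelial transcripts in the Arg2 values was not tested.

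Odc1, the entry to polyamine synthesis, was highly expressed and slightly lower with ligand. It lay at 11.32, 11.08 and 11.31 log2 with Shh, 11.53, 11.43 and 11.27 with Ihh, and 11.70, 11.67 and 11.86 with Vehicle. The ligand and Vehicle arrays did not overlap, with a gap of 0.14 log2. Odc1 was 1.42-fold lower with Shh (-0.50 ± 0.09, SE) and 1.26-fold lower with Ihh (-0.33 ± 0.09). Its 3 probe sets all had every ligand array below every Vehicle array, and for both ligands together they differed by -0.42, -0.18 and -0.49 log2.

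The arginine importer Slc7a2 depended on the probe set. The probe set with the highest level gave 6.62, 6.95 and 6.67 log2 with Shh, 7.0, 6.84 and 6.78 with Ihh, and 7.25, 6.98 and 7.17 with Vehicle. Ihh 1 lay above Vehicle 2, so the groups overlapped, and the difference for both ligands was -0.32 ± 0.09 (SE). The other 3 probe sets of Slc7a2 ranged from 3.98 to 4.73 on the 9 arrays, below every array median, and differed by 0.02 to 0.18 log2 in the opposite direction. No direction can be given for Slc7a2 as a gene.

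Nos2 and Ass1 lay below the array medians on every array. Nos2, the inducible nitric oxide synthase, was at 4.75 to 4.82 log2 with Shh, 4.73 to 4.97 with Ihh and 4.83 to 4.94 with Vehicle. Its difference for both ligands was -0.08 ± 0.06 (SE) and the groups overlapped. Ass1 was at 4.10 to 4.36 with Shh, 4.04 to 4.12 with Ihh and 3.98 to 4.10 with Vehicle, a difference of 0.11 ± 0.06. Whether these 2 probe sets detected any transcript is not known from these values. A further probe set is shared by Ass1 and Gm5424 and cannot be assigned to Ass1. It lay at 7.57 to 7.82 with Shh, 7.5 to 7.63 with Ihh and 7.27 to 7.96 with Vehicle, with both ligands inside the Vehicle range.

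**Figure D3:**
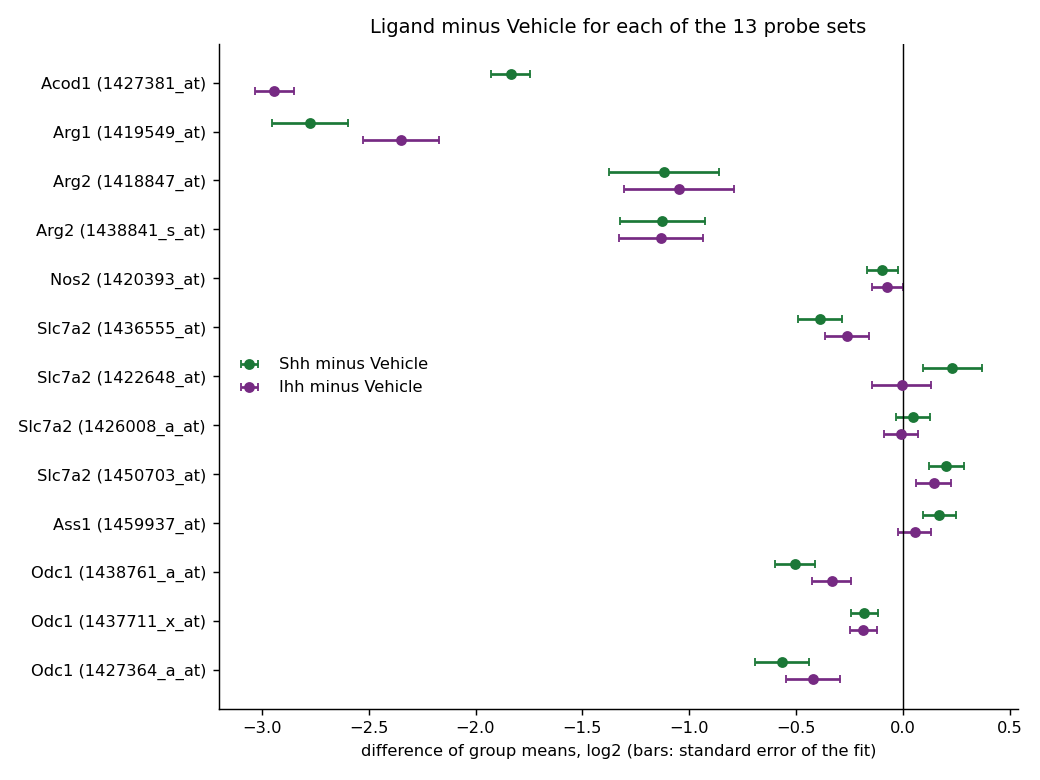
Difference of each ligand's mean from the Vehicle mean (log2) for the 13 probe sets, with Shh in green above Ihh in purple and bars for the standard error. Acod1 reaches -1.83 with Shh and -2.94 with Ihh, Arg1 -2.77 and -2.35, and the 4 probe sets of Slc7a2 lie on both sides of 0.

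Limma placed 4 of the 7 genes (Acod1, Arg1, Arg2 and Odc1) past the threshold for both ligands against Vehicle, all lower, where 1.51% of all genes passed (1.07% lower and 0.434% higher). For Shh 3 of 7 passed, all lower (1.73% of all genes, 1.24% lower and 0.489% higher), and for Ihh 2 of 7, both lower (0.649%, 0.456% lower and 0.192% higher). All 6 ligand arrays lay below all Vehicle arrays for these 4 genes and for 3.8% of all genes, and above them for 0 of the 7 and 2.67% of all genes. Nothing is read from these counts, nor from which calls held in the fits below, since the same contrast chose the genes. When single arrays were left out, the calls of Acod1 and Arg1 for both ligands always held. That of Arg2 held only without Ihh 1 or Ihh 3, and that of Odc1 only without Ihh 1. Arg2 also lost its call with the replicate block, with another quantile normalization and with the trended and robust variance model. For both ligands the median over the 7 genes was -0.42 log2, against 0.00 over all genes.

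The lower levels of Acod1 and Arg1 were set beside the level of macrophage transcripts. Of 18 macrophage markers 2 rose and 4 fell by limma with both ligands, where 0.434% of all genes rose and 1.07% fell. Cd14 fell by 1.66 log2, Adgre1 by 1.04, Itgam by 0.91 and Lyz2 by 0.26 (adjusted p = 3.09e-05, 0.000269, 0.00107 and 0.0494), while Cx3cr1 rose by 0.87 and Laptm5 by 0.37 (adjusted p = 0.0384 and 0.0347). With the replicate block Laptm5 lost its call (adjusted p = 0.0534). Csf1r, the growth factor receptor of macrophages, picked with its values in view, was at 12.003 to 12.35 log2 on the ligand arrays and 12.04 to 12.33 on the Vehicle arrays. The calls of Laptm5 and Lyz2 ended without any array but Ihh 1 (up to 0.143 and 0.19). Cx3cr1 lost its call without Shh 2, Shh 3, Ihh 2, Ihh 3, Vehicle 1 or Vehicle 3 (up to 0.167). The mean of the 18 markers was 9.30 to 9.43 on the ligand arrays and 9.43 to 9.65 on the Vehicle arrays, and only Cd163 lay below the medians on all arrays. Relative to this mean on the same array, Acod1 lay at -3.06 to -2.76 with Shh, -4.32 to -3.93 with Ihh and -1.41 to -1.23 with Vehicle. Arg1 relative to the same mean was -1.11 to -0.30 with Shh, -0.43 to -0.20 with Ihh and 1.67 to 2.13 with Vehicle. The differences from Vehicle were -2.18 log2 for Acod1 and -2.36 for Arg1 on this scale, against -2.39 and -2.56 without it. Since the markers moved in both directions, this mean is no measure of macrophage number, and the part of macrophage number in the differences was not tested.

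**Figure D4:**
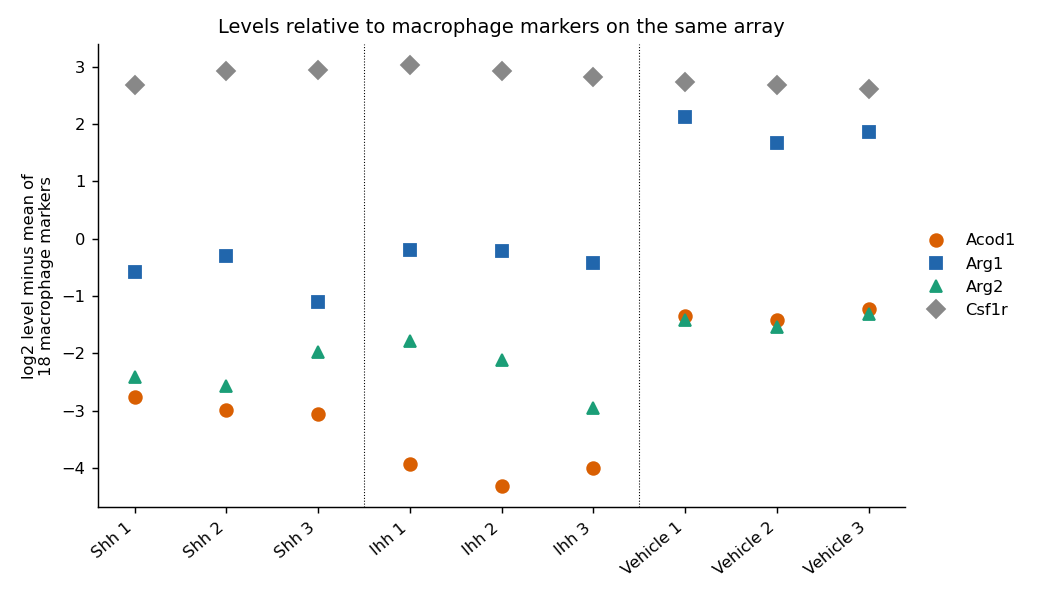
Log2 level of Acod1, Arg1, Arg2 and Csf1r minus the mean of 18 macrophage markers on the same array, for the Shh, Ihh and Vehicle arrays from left to right. Csf1r, picked with its values in view, lies at 2.68 to 3.03 on the ligand arrays and 2.62 to 2.74 on the Vehicle arrays. Other markers in the mean moved in both directions. Acod1 and Arg1 are lower on every ligand array than on every Vehicle array, and Acod1 is lowest on the Ihh arrays.

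Other cell types were read from their own markers, for both ligands against Vehicle, where 1.07% of all genes fell and 0.434% rose. Of 10 neutrophil markers 1 fell, Mmp8 (-1.64 ± 0.07 log2, limma adjusted p = 5.62e-06), and 6 of the 10, among them Mpo, Elane and S100a9, were below the medians on all arrays. The neutrophil mean was 5.51 to 5.81 on ligand arrays and 5.72 to 5.92 on Vehicle arrays. Of 12 epithelium markers and of 8 lymphocyte and dendritic cell markers limma called 0 (0 at an unadjusted p under 0.05 in both lists). Of 12 mesenchyme markers limma called 0 (2 higher and 4 lower unadjusted) and of 10 endothelium markers 0 (0 higher and 6 lower unadjusted). The share of all genes at that unadjusted level was not counted. Differences of the endothelium markers were below 0 for all 10, with a median of -0.27 log2. Those of the mesenchyme markers were below 0 for 8 and above it for 4, with a median of -0.06.

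Beyond these 7 genes, arginine and polyamine metabolism showed small differences. For both ligands against Vehicle 0 of 34 other pathway genes passed in limma, where 1.51% of all genes passed. Their median difference was -0.01 log2, against 0.00 over all genes. Unadjusted p was below 0.05 for 4 higher and 3 lower genes, and the share of all genes at that level was not counted. The largest difference was in Gch1, the first enzyme of tetrahydrobiopterin synthesis, a cofactor that nitric oxide synthases need. Gch1 was at 6.47 to 7.14 log2 on ligand arrays and 7.28 to 7.49 on Vehicle arrays, with no overlap and a difference of -0.65 ± 0.14 (SE, limma adjusted p = 0.0534). It passed the threshold in 3 of 6 other ways of processing, so its call was undecided.

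**Figure D5:**
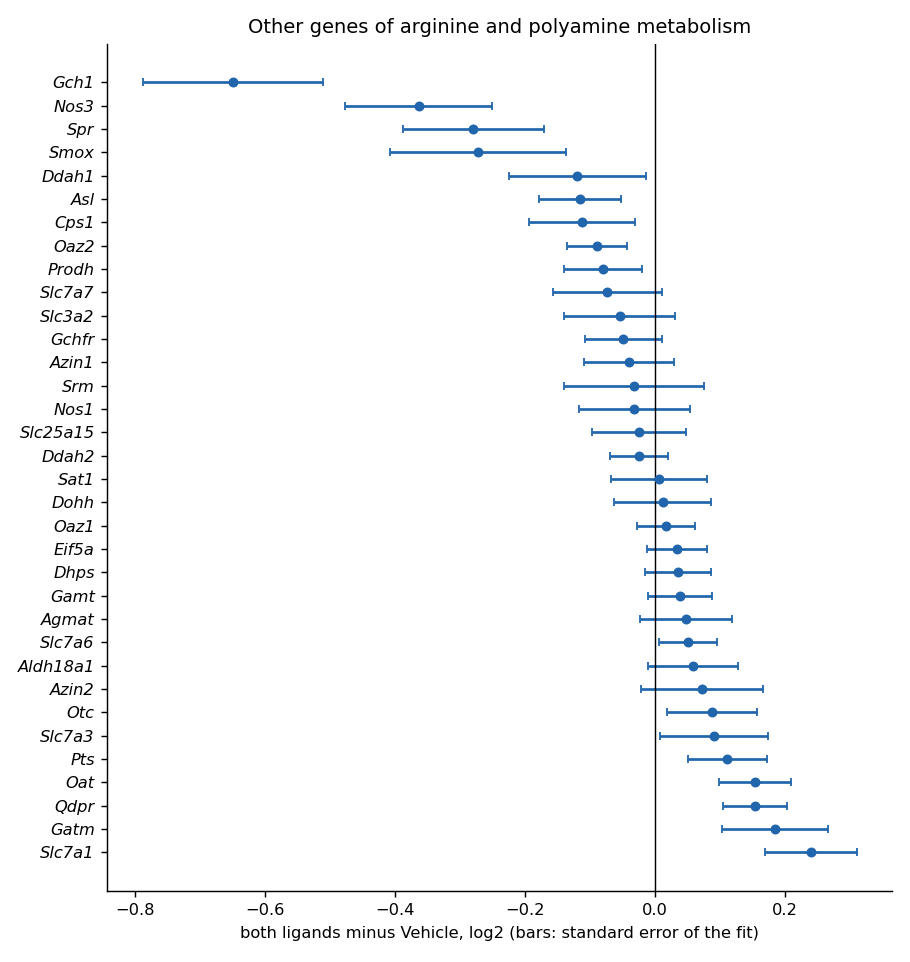
Both ligands minus Vehicle (log2) for 34 other genes of arginine and polyamine metabolism, sorted by the difference, with bars for the standard error. Gch1 has the lowest value (-0.65, top), Slc7a1 the highest (0.24, bottom), and the points spread over both sides of 0.

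Genes of transport, cofactor recycling and resynthesis also missed the threshold. Slc7a1, the arginine importer of most cells, differed by 0.24 ± 0.07 (SE, limma adjusted p = 0.149), and lay at 9.71 to 9.98 log2 on ligand arrays and 9.56 to 9.73 on Vehicle arrays. Nos3, the nitric oxide synthase of endothelium, differed by -0.36 ± 0.11 (adjusted p = 0.171). The endothelium marker mean was 8.38 to 8.82 on ligand arrays and 8.64 to 8.90 on Vehicle arrays, and its part in the Nos3 value was not tested. Qdpr, which recycles tetrahydrobiopterin, differed by 0.15 ± 0.05 (limma adjusted p = 0.191). Asl, which completes the route back to arginine, differed by -0.12 ± 0.06, and Srm, which makes spermidine, by -0.03 ± 0.11. Otc, Cps1, Agmat, Slc7a3 and Gchfr were below the array medians on all arrays.

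The citric acid cycle around itaconate also gave no calls. In limma 0 of 25 genes passed, where 1.51% of all genes passed, with a median difference of 0.01 log2. Unadjusted p was below 0.05 for 0 higher and 3 lower genes, again without a share over all genes. The 4 smallest p belonged to Acly, which splits exported citrate (-0.17, limma adjusted p = 0.285), Ogdh (-0.15, adjusted p = 0.291), the citrate carrier Slc25a1 (-0.15, adjusted p = 0.349) and the cytosolic aconitase Aco1 (0.14, adjusted p = 0.379). Of 11 genes of the Nrf2 antioxidant response, which itaconate can switch on, 1 fell, the glutathione reductase Gsr (-0.38 ± 0.07, limma adjusted p = 0.0259). Over all genes 1.07% fell. Hmox1, a haem-degrading enzyme of this response, was at 8.74 to 10.26 on ligand arrays and 10.31 to 10.64 on Vehicle arrays, a difference of -1.07 ± 0.31 (adjusted p = 0.138). The cystine importer Slc7a11 differed by -0.69 (limma adjusted p = 0.0664) and Gclm by -0.31 (adjusted p = 0.38). The call of Gsr ended without Shh 2, Shh 3, Ihh 2, Vehicle 1 or Vehicle 2, at up to 0.139.

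Transcription factors known to act on Acod1, Arg1 or Nos2 were lower in part. Of 20 measured, 0 rose and 3 fell, where 0.434% of all genes rose and 1.07% fell. Their median was -0.18 log2, against 0.00 over all genes. Cebpb, a basic leucine zipper factor of myeloid cells, was at 10.43 to 10.79 log2 on ligand arrays and 11.22 to 11.37 on Vehicle arrays (-0.62 ± 0.08, SE, limma adjusted p = 0.00396). Fos, a subunit of AP-1, fell by 0.53 (limma adjusted p = 0.00406) and Nfkb2, an NF-kB subunit, by 0.28 (adjusted p = 0.0259). Rela, the main activating NF-kB subunit, differed by -0.28 (limma adjusted p = 0.0507). The calls of Cebpb and Fos held without any single array, at up to 0.0347 and 0.0374, and that of Nfkb2 ended without Shh 3, Ihh 2, Ihh 3 or any Vehicle array, at up to 0.109.

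Genes of classical and alternative macrophage activation were read as well. Of 22 classical activation genes 0 rose and 5 fell, where 0.434% of all genes rose and 1.07% fell. Their median was -0.23 log2, against 0.00 over all genes. The 5 were Fpr2, a formyl peptide receptor, the cytokines Il1b and Il6, and the chemokines Cxcl10 and Ccl5. Il1b was at 6.20 with Shh, 6.21 with Ihh and 7.94 with Vehicle on average (limma adjusted p = 0.00012), and Ccl5 at 6.92, 6.76 and 8.21 (adjusted p = 0.0285). Of 20 alternative activation genes 1 rose and 0 fell, with a median of -0.01. It was Tgm2, a transglutaminase, at 10.82 to 11.18 log2 on ligand arrays and 10.40 to 10.55 on Vehicle arrays (0.51 ± 0.09, limma adjusted p = 0.028). The mannose receptor Mrc1 differed by 0.10 ± 0.07 (adjusted p = 0.557), and 11 of the 20, among them Chil3 and Retnla, were below the medians on all arrays. The difference between these 2 lists was not tested, and the 7 genes, Arg1 and Nos2 among them, were in neither list. Ccl5 kept its call only without Ihh 1 or Vehicle 3 (otherwise up to 0.142). Cxcl10 lost its call without Shh 1, Shh 3, Vehicle 1 or Vehicle 2 (up to 0.12), and Tgm2 without Shh 1, Shh 2, Ihh 2 or any Vehicle array (up to 0.143) and with the replicate block (adjusted p = 0.051).

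The genes whose values followed Acod1 most closely over the 9 arrays were Mmp8, Marco, Tlr2, Clec4d and Cxcl3, with Pearson's r of 0.992, 0.991, 0.989, 0.98 and 0.978. Like Acod1, by whose values they were picked, they lay higher with Shh than with Ihh, so this order is no separate result. For Mmp8, a collagenase, the group means were 6.74 with Shh, 6.19 with Ihh and 8.10 log2 with Vehicle. For Tlr2, a receptor for bacterial lipoproteins, they were 7.05, 6.50 and 7.89. Cxcl3, a neutrophil chemokine, averaged 8.81 with Shh, 7.84 with Ihh and 10.64 with Vehicle. The genes closest to Arg1 were Irak3, Marcksl1, Nfkbiz, Serpinb2 and Il1b, with r of 0.986, 0.985, 0.979, 0.976 and 0.976. Irak3, which restrains Toll-like receptor signalling, averaged 6.40 with Shh, 6.63 with Ihh and 7.96 with Vehicle. No gene was among the 5 closest to both. These correlations are descriptions over 9 arrays that fall into ligand and Vehicle groups, and such groups alone give a high r to any gene that differs between them.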

How the data were processed

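Expression was measured on 9 Affymetrix arrays of biotin-labelled cRNA. The deposited values are log2 expression per probe set (45101 probe sets). The submitters' processing notes name GCOS and RMA without versions, and that the scale is log2 was read from the range of 2.78 to 14.20. Because RMA brings arrays to a common distribution, a change shared by every gene is hidden.

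Names came from the platform annotation (34945 probe sets with 1 symbol, 932 with several, 9160 with none, 64 controls). Entrez identifiers matched the RefSeq gene table of GRCm38.p6 for 34741 of the first kind, which changed 0 symbols. Each gene was represented by the brightest of its single-symbol probe sets. Sequences were at hand for 3 of the 7 genes.

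Limma 3.58.1 (lmFit, eBayes; R 4.3.3) fitted group means to all 9 arrays (6 residual and 3.88 prior degrees of freedom), two-sided, with Benjamini-Hochberg adjustment over 18193 genes and a threshold of 0.05. The steps were tested on simulated data. Named were all probe sets of the 7 genes, up to 4 genes per list with the smallest p, any called between the ligands, and the 5 genes with the highest r with Acod1 and with Arg1. Csf1r, Asl, Srm, Mrc1 and genes named as dim were picked with their values in view. The genes and lists were chosen with earlier results of these data known.

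Deviations from group means of same-numbered arrays correlated at 0.35, 0.23 and 0.54 between Ihh and Vehicle, but at -0.30 to 0.14 in the pairs with Shh, and the labels say that wells were pooled at random. The replicate number was therefore kept as an alternative, and a block over the Ihh and Vehicle arrays alone was added after the data were seen. For Ihh against Vehicle 280 genes passed with the block and 87 without it over those arrays, and 122 with it and 118 without it over all 9 arrays. Other alternatives were another quantile normalization, centring on medians, leaving out dim genes (under the 40th percentile), averaging probe sets by gene, a trended and robust variance model, fits of only the groups compared, and leaving out each array.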

Additional observations from a re-analysis of the deposited data

Results flagged for a closer look

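Acod1 differed between the ligands. It was below Vehicle with both, and the test of the difference itself, Shh minus Ihh, gave 1.11 ± 0.09 log2 (SE, limma adjusted p = 0.00519), with 6.30 to 6.56 log2 on the 3 Shh arrays and 5.11 to 5.38 on the 3 Ihh arrays. The sources used here do not state doses, so ligand identity and dose cannot be told apart.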

How the results depend on the processing

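No called result changed sign under any alternative tried. The difference of Acod1 between Shh and Ihh kept its size (1.02 to 1.16 log2 without 1 array). It lost its call only when the Vehicle arrays were left out of the fit (1.11, limma adjusted p = 0.0948). That fit has fewer arrays to estimate the spread, and it leaves out the group with the smallest SD of Acod1. This SD was 0.02 with Vehicle, against 0.15 with Shh and 0.15 with Ihh. The part of each in the lost call was not tested. Leaving out 1 array moved Acod1 and Arg1 for both ligands only within -2.43 to -2.35 and -2.65 to -2.43. Slc7a2 was -0.00395 as the mean of its probe sets and 0.0185, 0.11 and 0.18 for its other probe sets singly, and Odc1 was -0.18 for 1 of its probe sets.

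The replicate number as a block gave 522 genes for Shh against Vehicle (314 without it), 379 for both ligands (274 without it) and 122 for Ihh (118 without it). Over the Ihh and Vehicle arrays alone it gave 280 for Ihh (87 without it). Between Shh and Ihh 0 genes passed when only their arrays were fitted. Without 1 array the counts were 99 to 416 for both ligands, 80 to 675 for Shh, 53 to 229 for Ihh and 1 to 2 between the ligands, and for the first 3 the lowest counts came without Vehicle 2, Vehicle 1 and Ihh 2 and the highest without Vehicle 3. Between the ligands 1 gene, Acod1, passed without Shh 1, Shh 2, Shh 3, Ihh 1, Vehicle 1 or Vehicle 2. The arginine and polyamine list had 1 call (Nos3) with the replicate block and 1 (Gch1) with centring on medians, without dim genes and with the trended and robust model. The transcription factor list had 5 calls in each of the last 3 settings. The alternative activation list had 0 with the replicate block and with the mean of the probe sets, the mesenchyme list 1 without dim genes, 2 with the mean of the probe sets and 2 with the trended and robust model, and the endothelium list 1 with the replicate block. Without 1 array, list counts were 0 to 1 for the arginine, Nrf2, alternative activation and endothelium lists, 3 to 8 for classical activation, 3 to 6 for macrophage markers and 1 to 2 for neutrophil markers. Signal below the array medians limits what can be said of Nos2, Ass1 and the Ihh level of Acod1.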
